A study of Homo sapiens with 3 samples.

Results

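Kinesin motor genes were examined in RNA from A375SM, a metastatic derivative of the human melanoma line A375. The members are the rows whose symbol is KIF or KIFC followed by digits and an optional letter A, B or C, so that antisense and kinesin-binding genes stay out. This gave 42 of the 24424 genes of the count table. 3 stable populations were compared with 1 library each, selected for the green fluorescent reporter of their lentiviral hairpin vector. The vector of shPRAME cells targets PRAME, that of shBAP1 cells targets BAP1, and shEmpty cells hold the control, which one label calls a non-targeting hairpin and another wild type. All 3 populations, the control included, carried the vector. With 1 population and 1 library for each hairpin, effects of the knockdown, of the hairpin itself and of the population cannot be told apart.

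Kinesins are motor proteins that use ATP to move along microtubules or to shorten them. One group builds and drives the mitotic spindle, moves chromosomes and completes cell division, and most of its genes are transcribed mainly in late phases of the cell cycle. Another group carries vesicles, organelles and cilium components, mostly towards microtubule plus ends, and is active in resting cells too. In pigment cells kinesins also take part in positioning melanosomes.

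With a single library behind every group, differences could not be checked against replicates and p-values are absent. Library totals were 18456328 (shPRAME), 14181829 (shBAP1) and 19430130 counts (shEmpty). Scaled counts are given as CPM, in which counts are set relative to the scaled library size. Where a gene had 0 counts the upper limit is 3 counts, equal to 0.164 CPM in shPRAME, 0.202 in shBAP1 and 0.160 in shEmpty. A gene with a mean count of at least 50 was measured, and it is called higher or lower where the ratio of scaled counts reached 2-fold and its exact 95% interval did not include equality. Folds are given with that interval in parentheses. Intervals and floors cover counting error only, so a call compares these libraries and not the conditions. PRAME stood at 108 CPM in shPRAME, against 327 CPM in shEmpty, and BAP1 at 35.2 CPM in shBAP1, against 100.0 CPM in shEmpty. Of 9 markers of the melanocyte lineage 7 were measured, and several of them differed widely between the libraries. All 9 summed to 827, 1033 and 915 CPM in shPRAME, shBAP1 and shEmpty. SOX10 stood at 657, 367 and 506 CPM in shPRAME, shBAP1 and shEmpty, and MITF at 114, 239 and 310 CPM. PAX3 had 10.8, 17.4 and 15.4 CPM and S100B 43.2, 186 and 72.4 CPM in the same order. SOX10 and PAX3 were called in no comparison. The pigment enzyme genes had most counts in shBAP1, with 6, 1668 and 192 counts of DCT, 1, 1037 and 0 of TYRP1 and 0, 573 and 4 of TYR in the same order. TYRP1 and TYR thus reached the count minimum only through shBAP1. None of 3 keratinocyte, 3 immune, 3 endothelial and 3 neuronal markers was measured. The 5 fibroblast markers summed to 50.9, 42.1 and 34.6 CPM in the same order, but the 2 measured ones differed in direction in shBAP1. PDGFRA had 24.4, 2.22 and 14.04 CPM in the same order. It was called lower in shBAP1 than in shEmpty (6.31-fold, 4.39 to 9.37) and higher in shPRAME than in shBAP1. LUM had 21.8, 32.5 and 19.4 CPM and was called in no comparison. The pigment protein genes PMEL and MLANA stayed under the minimum, with at most 34 counts in a library. Whether these marker differences have a part in those of the kinesins was not tested.

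Of the 42 kinesins 32 were measured, 8 had counts below the minimum and 2 (KIF2B and KIF25) had no count in any library. The 14 mitotic members had 12 measured, the 15 transport members 13, and the 13 others, which regulate microtubule growth or cilia or are less well known, had 7. KIF5A passed the minimum only through shPRAME. KIF5C, with 22 counts in shBAP1 and 77 in shEmpty, would fall just short of the minimum without shPRAME. KIF4B is an intronless near-copy of KIF4A with at most 2 counts in a library, and reads of the 2 genes may not be separable.

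In shPRAME the mitotic kinesins were lower than in shEmpty as a group, while transport kinesins went both ways around no change. Of the 12 measured mitotic motors 11 were called lower and none higher, and their median log2 ratio was -1.31, a 2.48-fold lower level. Intervals lay below no change in 12 of 12, against 43.1% of all measured genes. The 13 measured transport motors had 1 lower, 2 higher and 10 neither, with a median of 0.04. With a minimum of 200 counts, which leaves out KIF5A, 1 transport motor was higher. Over all measured genes the median was -0.06, and 9.08% of genes were called lower and 10.2% higher. All kinesins combined had 13 of 32 lower (40.6%) and 4 of 32 higher (12.5%). The difference between the mitotic and transport medians was -1.35 in shPRAME over shEmpty and -0.39 in shBAP1 over shEmpty.

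**Figure D1:**
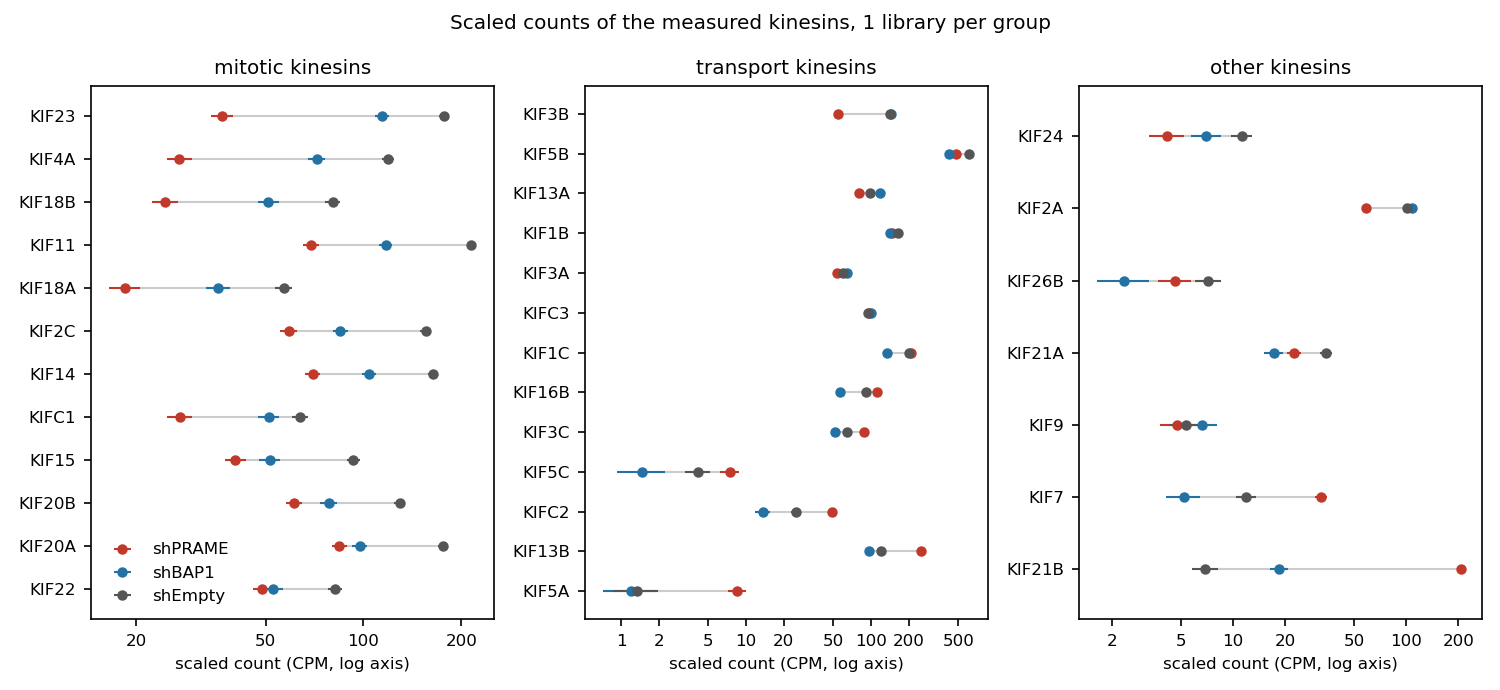
Scaled counts in CPM on a log axis for the 32 measured kinesins by role, with 1 point per library (shPRAME, shBAP1, shEmpty) and exact 95% counting intervals as bars. All 12 mitotic motors have shPRAME lowest and shEmpty highest, while the order of the libraries varies among the transport and other motors.

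KIF23 and KIF4A had the lowest ratios of the mitotic motors in shPRAME. KIF23 (chromosome 15), the motor subunit of the centralspindlin complex needed for cytokinesis, was at 36.8 CPM in shPRAME, 114 CPM in shBAP1 and 177 CPM in shEmpty. It was 4.80-fold lower in shPRAME than in shEmpty (4.41 to 5.22) and 1.55-fold lower in shBAP1 (1.46 to 1.64). KIF4A (chromosome X), a chromosome-binding motor that with PRC1 limits the length of the midzone, stood at 27.2 CPM in shPRAME, 71.7 CPM in shBAP1 and 119 CPM in shEmpty. Its level was 4.39-fold lower in shPRAME (3.98 to 4.84) and 1.66-fold lower in shBAP1 (1.54 to 1.79). In both genes the shPRAME library stood well below the other two, whose intervals did not overlap either.

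Other motors of the midzone and midbody were nearer the 2-fold limit in shPRAME. KIF20A (chromosome 5), which brings the chromosomal passenger complex to the midzone, was at 84.4 CPM in shPRAME, 97.4 CPM in shBAP1 and 176 CPM in shEmpty. Its ratio of 2.09-fold down in shPRAME (1.96 to 2.22) was close to that of 1.81-fold in shBAP1 (1.70 to 1.92). KIF20B (chromosome 10), a motor of late cytokinesis, had 61.2 CPM in shPRAME, 78.2 CPM in shBAP1 and 129 CPM in shEmpty, and was 2.11-fold lower in shPRAME (1.97 to 2.27). The calls of KIF20A and KIF20B ended under upper-quartile scaling, with log2 ratios of -0.97 and -0.99. KIF14 (chromosome 1), which recruits citron kinase to the midbody, had 69.7 CPM in shPRAME, 104 CPM in shBAP1 and 163 CPM in shEmpty. It was 2.34-fold lower in shPRAME (2.19 to 2.50).

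Motors that set up the bipolar spindle were called lower in shPRAME as well. KIF11 (chromosome 10), also known as Eg5, slides antiparallel microtubules apart and is the target of several antimitotic compounds. It had 69.0 CPM in shPRAME, 117 CPM in shBAP1 and 215 CPM in shEmpty, 3.11-fold lower in shPRAME than in shEmpty (2.92 to 3.31). KIF15 (chromosome 3), which can stand in for KIF11, had 40.4 CPM in shPRAME, 51.5 CPM in shBAP1 and 93.1 CPM in shEmpty, 2.30-fold lower in shPRAME (2.11 to 2.51). KIFC1 (chromosome 6), a minus-end motor that focuses spindle poles and clusters extra centrosomes, had 27.2 CPM in shPRAME, 51.1 CPM in shBAP1 and 63.7 CPM in shEmpty. It was 2.34-fold lower in shPRAME (2.11 to 2.60), and in shBAP1 its ratio of 1.25-fold down (1.14 to 1.37) was the smallest of the 12.

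Motors acting on chromosomes and microtubule ends followed the same order of libraries. KIF18A (chromosome 11), which damps chromosome movements at metaphase, had 18.4 CPM in shPRAME, 35.8 CPM in shBAP1 and 56.8 CPM in shEmpty, 3.08-fold lower in shPRAME (2.73 to 3.50). KIF18B (chromosome 17), a regulator of astral microtubules, had 24.6 CPM in shPRAME, 51.1 CPM in shBAP1 and 80.4 CPM in shEmpty, 3.27-fold lower in shPRAME (2.94 to 3.64). The depolymerase KIF2C (chromosome 1), known as MCAK, corrects faulty kinetochore attachments. It stood at 59.0 CPM in shPRAME, 85.0 CPM in shBAP1 and 155 CPM in shEmpty, 2.63-fold lower in shPRAME (2.46 to 2.83). KIF22 (chromosome 16), a chromokinesin that pushes chromosome arms, was the measured mitotic member that passed in neither direction. Its values were 48.8 CPM in shPRAME, 52.9 CPM in shBAP1 and 81.9 CPM in shEmpty, 1.68-fold lower in shPRAME (1.55 to 1.83).

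In shBAP1 none of the 12 measured mitotic kinesins reached the 2-fold limit, yet all 12 had intervals below no change. With a 1.5-fold limit 11 of the 12 were called lower. Of all measured genes 8.56% were called lower and 5.53% higher in shBAP1, and 39.1% had an interval below no change at any size. The median log2 ratio of the mitotic motors was -0.70 in shBAP1 (1.62-fold lower), with a range of -0.88 for KIF11 to -0.32 for KIFC1. Over all measured genes it was -0.03. Scaling by total count raised the ratio of every gene in this comparison by 0.12 log2, which put the mitotic median at -0.58 and that of all genes at 0.09. Counted at any size, the order shPRAME below shBAP1 below shEmpty held in 12 of 12 mitotic motors, in none of 13 transport motors and in 18.8% of all measured genes. Both comparisons share the shEmpty library, and a low or high count there moves both ratios.

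Set directly against shBAP1, the shPRAME library had 3 of 12 mitotic motors called lower and 9 neither, where 10.9% of all measured genes were called lower and 14.2% higher. KIF23 was 3.09-fold lower in shPRAME than in shBAP1 (2.83 to 3.39), KIF4A 2.64-fold (2.37 to 2.94) and KIF18B 2.07-fold (1.84 to 2.34). For KIF22 the ratio of 1.08-fold down (0.983 to 1.19) did not leave out no change, and the other 11 intervals lay below it, against 43.9% of all measured genes. The median of the mitotic motors was -0.67 and that of the transport motors 0.64, so the difference of medians was -1.31. With a minimum of 200 counts the transport median was 0.18 and the difference -0.85.

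**Figure D2:**
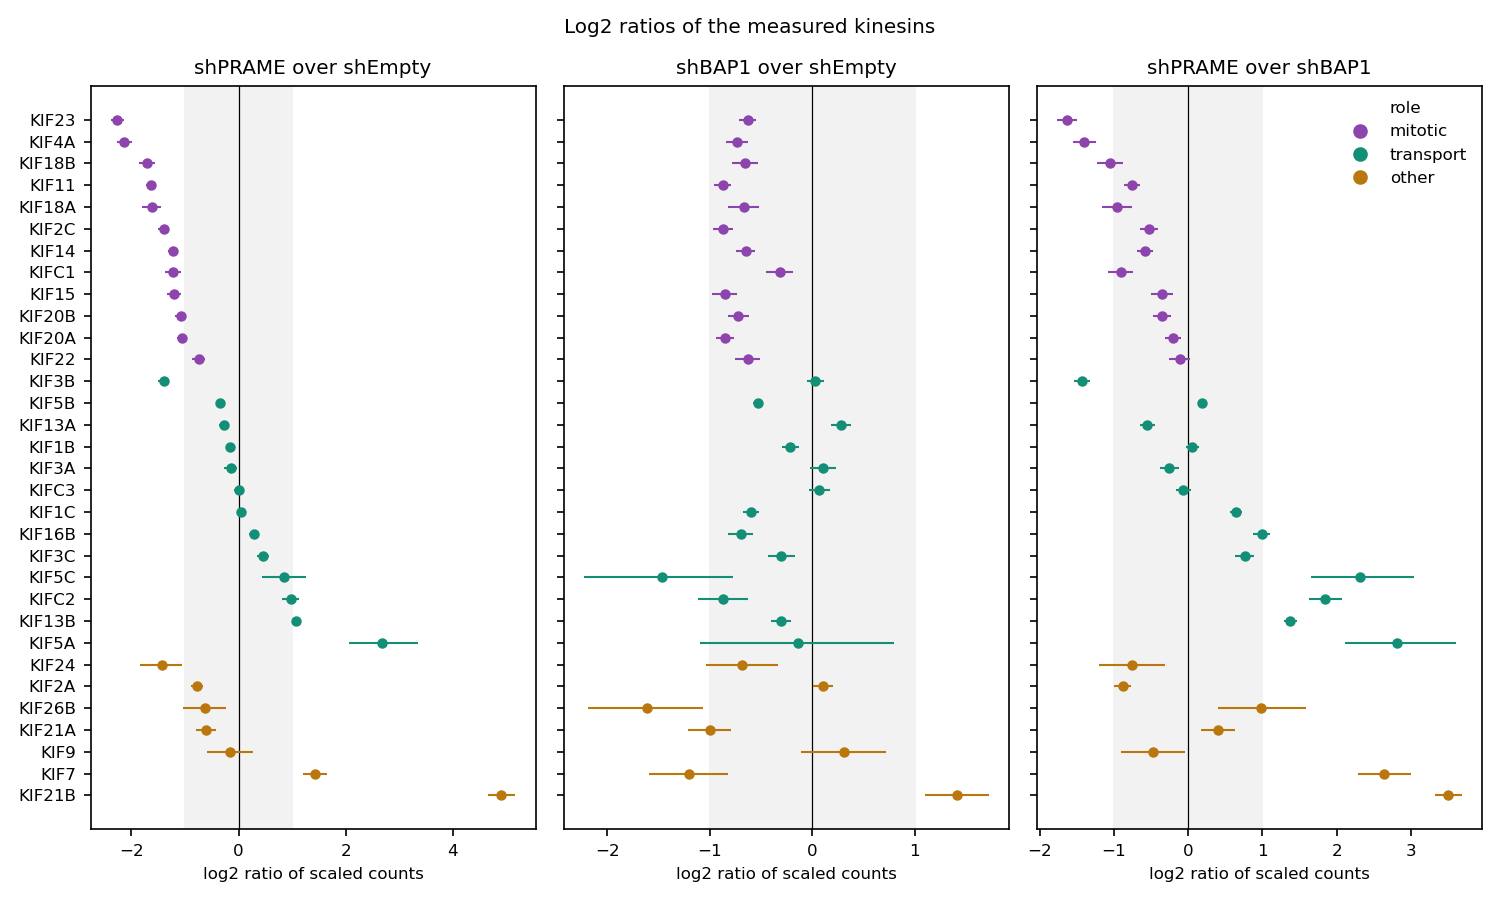
Log2 ratios of scaled counts for the 32 measured kinesins in the 3 comparisons, with exact 95% counting intervals as bars, colours for role and grey shading inside the 2-fold limit. Mitotic motors reach -2.26 (KIF23) in shPRAME over shEmpty and lie between -0.88 and -0.32 in shBAP1 over shEmpty, and KIF21B reaches 4.91.

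Promoter windows of RefSeq genes (GRCh38.p14, 250 bases before to 50 after the start site) were searched for a pair of short words on both strands. TTTGAA is the core of the cell cycle genes homology region, an element of many late cell cycle promoters, and CCAAT is the box bound by NF-Y. Windows were found for 34 of the 42 kinesins. The table held none for KIF13B, KIF5A, KIFC2 and KIFC3 (transport) and KIF21B, KIF19, KIF27 and KIF26B (other), so the shares leave these out. Among them KIF21B, KIF13B and KIF5A were called higher in shPRAME. TTTGAA occurred in a window of 10 of 14 mitotic kinesins (71.4%), 1 of 11 transport kinesins (9.09%), none of 9 others and 18.2% of all genes in the table. CCAAT occurred in 11 of 14 mitotic kinesins (78.6%), 4 of 11 transport kinesins (36.4%), 3 of 9 others (33.3%) and 39.7% of all genes. Both words stood in the same window of 9 of 14 mitotic kinesins (64.3%), against 7.26% of all genes, and no matches of the 2 words overlapped in the kinesin windows. The 14 include 2 members that were not measured: KIF4B, the near-copy of KIF4A, with both words, and KIF2B with neither. A match describes the letters only.

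The 120 bases before the start site are shown for the 5 mitotic motors whose TTTGAA match lies upstream of that site, for the mitotic motor KIF22, which was not called lower, and for KIF3B, the transport motor that was. Capitals mark TTTGAA and CCAAT on either strand, so that TTCAAA and ATTGG are the same words read on the opposite strand. Coordinates are on GRCh38.p14, whereas the files were made on hg19, and each is written 5′ to 3′ on the gene's strand.
KIF23, chr15:69414229-69414348, plus strand: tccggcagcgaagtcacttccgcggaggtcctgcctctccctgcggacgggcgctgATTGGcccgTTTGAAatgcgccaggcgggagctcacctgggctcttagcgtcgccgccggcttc
KIF4A, chrX:70289984-70290103, plus strand: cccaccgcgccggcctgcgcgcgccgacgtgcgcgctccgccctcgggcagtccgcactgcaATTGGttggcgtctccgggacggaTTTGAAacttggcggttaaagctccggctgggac
KIF11, chr10:92593010-92593129, plus strand: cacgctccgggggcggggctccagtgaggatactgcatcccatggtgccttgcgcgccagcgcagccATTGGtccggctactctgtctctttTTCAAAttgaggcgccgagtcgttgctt
KIF18A, chr11:28108157-28108276, minus strand: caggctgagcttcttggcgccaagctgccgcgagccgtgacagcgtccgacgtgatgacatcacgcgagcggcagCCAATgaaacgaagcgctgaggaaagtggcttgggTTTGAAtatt
KIF15, chr3:44761674-44761793, plus strand: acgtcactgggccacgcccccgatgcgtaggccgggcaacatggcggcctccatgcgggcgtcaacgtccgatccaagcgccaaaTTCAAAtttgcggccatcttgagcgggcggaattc
KIF22, chr16:29790631-29790750, plus strand: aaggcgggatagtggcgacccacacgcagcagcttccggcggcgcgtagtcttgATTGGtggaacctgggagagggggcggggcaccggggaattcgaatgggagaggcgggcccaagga
KIF3B, chr20:32277531-32277650, plus strand: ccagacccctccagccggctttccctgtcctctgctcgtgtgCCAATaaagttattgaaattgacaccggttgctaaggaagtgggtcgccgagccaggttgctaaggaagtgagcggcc

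In KIF23 the word TTTGAA began 55 bases before the start site, in KIF4A 34, in KIF11 28, in KIF18A 10 and in KIF15 35 bases before it. A CCAAT match lay further upstream in 4 of these 5 windows, at 64 bases in KIF23, 58 in KIF4A, 53 in KIF11 and 45 in KIF18A. KIF22 and KIF3B had CCAAT and no TTTGAA in the windows searched. KIF2C and KIF20A, which were called lower in shPRAME, had no TTTGAA in their windows either. KIF5B was the transport motor with a match, 140 bases before the start site.

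Mitotic motors made up a smaller share of the kinesin counts in shPRAME than in the other libraries. They took 22.3% of all kinesin counts in shPRAME (21.9 to 22.7), 37.5% in shBAP1 (37.0 to 38.0) and 44.9% in shEmpty (44.5 to 45.3), with exact Clopper-Pearson intervals. Summed over members, mitotic motors had 567 CPM in shPRAME, 909.6 CPM in shBAP1 and 1510.4 CPM in shEmpty. Transport motors summed to 1632 CPM in shPRAME, 1344 CPM in shBAP1 and 1673 CPM in shEmpty, a much narrower spread. The others had 342 CPM in shPRAME, 170.4 CPM in shBAP1 and 181 CPM in shEmpty, and KIF21B alone made up 208 CPM of the first value. Counts per kb of transcript, which put genes of different length on one scale, gave mitotic shares of 31.6%, 47.0% and 54.8% in the same order of libraries.

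**Figure D3:**
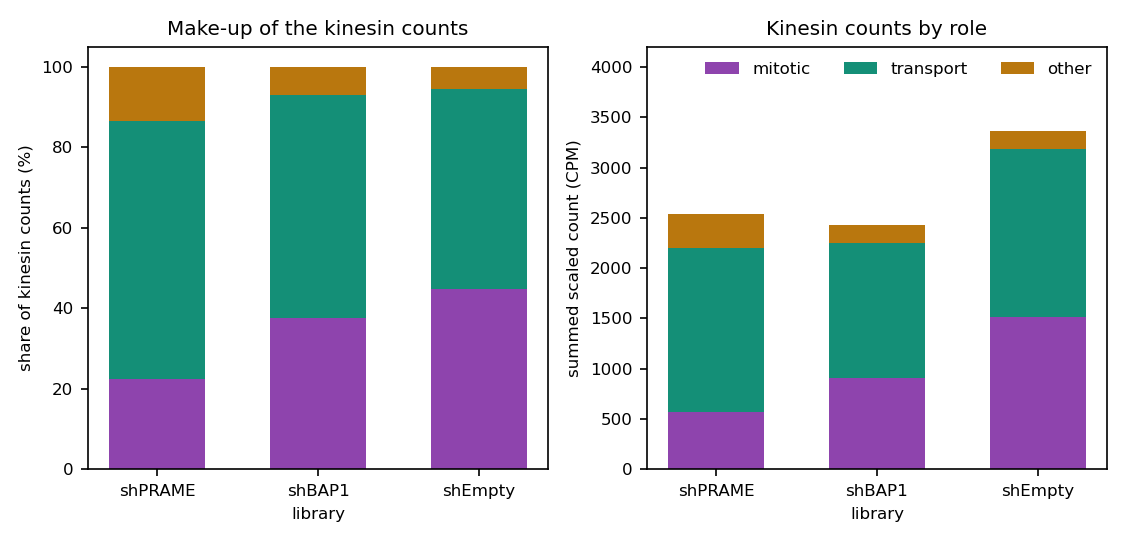
Bars give, for the shPRAME, shBAP1 and shEmpty libraries, the share of kinesin counts (left, percent) and the summed scaled count (right, CPM) of mitotic, transport and other kinesins. The mitotic part is 22.3% in shPRAME, 37.5% in shBAP1 and 44.9% in shEmpty.

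Transport kinesins ranged from -1.40 for KIF3B to 1.07 for KIF13B on the log2 scale in shPRAME over shEmpty, with the scarce KIF5A at 2.68. KIF5B (chromosome 10), the ubiquitous heavy chain of conventional kinesin, was the most abundant kinesin per length in every library. It had 474 CPM in shPRAME, 419 CPM in shBAP1 and 604 CPM in shEmpty, which is 80.7, 71.2 and 103 CPM per kb. Its ratios of 1.27-fold down in shPRAME (1.24 to 1.31) and 1.44-fold down in shBAP1 (1.40 to 1.49) stayed within the 2-fold limit. KIF5A (chromosome 12) and KIF5C (chromosome 2), its paralogs enriched in neurons, were scarce. KIF5A had 156 counts in shPRAME, 18 in shBAP1 and 25 in shEmpty, 6.39-fold higher in shPRAME (4.17 to 10.2) and at 1.33 CPM in shEmpty. KIF5C had 135 counts in shPRAME, 22 in shBAP1 and 77 in shEmpty, and was called lower in shBAP1 (2.77-fold, 1.71 to 4.68). KIF5B nevertheless held 96.8% of the counts of the KIF5 genes in shPRAME, 99.4% in shBAP1 and 99.1% in shEmpty.

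The kinesin-2 genes KIF3A, KIF3B and KIF3C encode motor subunits of intraflagellar and vesicle transport, in which KIF3A pairs with either KIF3B or KIF3C. KIF3B (chromosome 20) was the transport motor called lower in shPRAME, with 54.1 CPM in shPRAME, 146 CPM in shBAP1 and 143 CPM in shEmpty. It was 2.64-fold lower in shPRAME (2.45 to 2.84) and had a ratio of 1.02-fold up in shBAP1 (0.964 to 1.08). KIF3A (chromosome 5) had 53.7 CPM in shPRAME, 64.0 CPM in shBAP1 and 59.6 CPM in shEmpty. KIF3C (chromosome 2) stood at 87.4 CPM in shPRAME, 51.6 CPM in shBAP1 and 63.7 CPM in shEmpty, with a ratio of 1.37-fold up in shPRAME (1.27 to 1.48). Per kb, KIF3B took 26.3% of the KIF3 counts in shPRAME, 54.7% in shBAP1 and 52.3% in shEmpty, and KIF3C 48.5%, 22.1% and 26.6%. KIF3C was thus the most abundant of the 3 per length in shPRAME, and KIF3B in the other libraries. KIFAP3, the accessory subunit that joins these motors and is no member, had 148.3 CPM in shPRAME, 88.9 CPM in shBAP1 and 94.0 CPM in shEmpty.

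KIF13A and KIF13B are paralogous motors of endosomal cargo, and KIF13A is known for its part in delivering cargo to maturing melanosomes. KIF13B (chromosome 8) was called higher in shPRAME, at 251 CPM, against 96.7 CPM in shBAP1 and 119 CPM in shEmpty, 2.11-fold over shEmpty (2.002 to 2.22). KIF13A (chromosome 6) had 80.6 CPM in shPRAME, 118 CPM in shBAP1 and 97.4 CPM in shEmpty. The paralogs therefore lay on opposite sides of no change in both comparisons with shEmpty. Per kb, KIF13B made up 71.2% of the pair in shPRAME, 39.3% in shBAP1 and 49.2% in shEmpty.

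**Figure D4:**
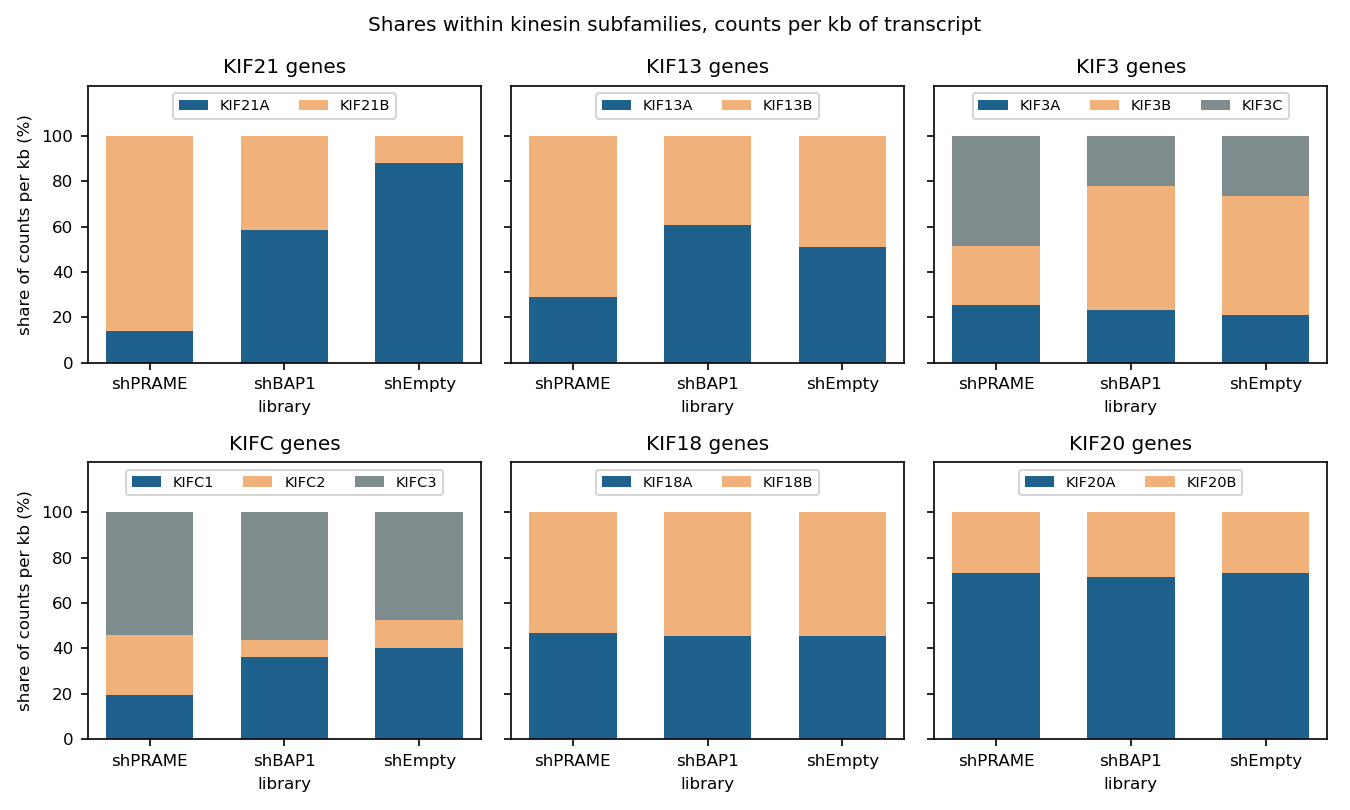
Shares of counts per kb of transcript (percent) within 6 kinesin subfamilies in shPRAME, shBAP1 and shEmpty, with each bar adding to the whole subfamily. KIF21B holds 86.0% of the KIF21 genes in shPRAME, 41.7% in shBAP1 and 11.9% in shEmpty, while the KIF18 and KIF20 genes, all mitotic, keep nearly the same shares in the 3 libraries.

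None of the remaining transport motors was called in shPRAME over shEmpty. KIF1B (chromosome 1), a carrier of mitochondria and synaptic vesicle precursors, had 147 CPM in shPRAME, 141 CPM in shBAP1 and 164 CPM in shEmpty. KIF1C (chromosome 17), which moves integrin and other vesicles, had 208 CPM in shPRAME, 134 CPM in shBAP1 and 203 CPM in shEmpty, so that shBAP1 was the low library. KIF16B (chromosome 20), a motor of early endosomes, had 112 CPM in shPRAME, 56.4 CPM in shBAP1 and 91.7 CPM in shEmpty. The minus-end motors KIFC3 and KIFC2 contrasted. KIFC3 (chromosome 16) was nearly level at 95.7 CPM in shPRAME, 100.0 CPM in shBAP1 and 95.4 CPM in shEmpty. KIFC2 (chromosome 8), known from neurons, had 49.0 CPM in shPRAME, 13.7 CPM in shBAP1 and 24.98 CPM in shEmpty, and was 3.58-fold higher in shPRAME than in shBAP1 (3.07 to 4.19). Its ratio of 1.96-fold over shEmpty (1.75 to 2.20) passed the limit under total-count and upper-quartile scaling. Of the annotated exon bases of KIFC2, 21.7% lie opposite another gene, and whether counting used the strand is not given.

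Of 13 transport motors KIF5C alone was called lower in shBAP1 (7.69%, against 8.56% of all measured genes), and 12 passed in neither direction. The median log2 ratio was -0.30, against -0.03 over all measured genes. The median was -0.18 with scaling by total count. Directly compared, shPRAME had 4 transport motors higher than shBAP1 (KIF5A, KIF5C, KIFC2 and KIF13B), 1 lower (KIF3B) and 8 neither, where 14.2% of all measured genes were higher and 10.9% lower. With a minimum of 200 counts, which leaves out KIF5A and KIF5C, 2 were higher. Counted at any size, the order shBAP1 below shEmpty below shPRAME was found in 7 of 13 transport motors and in 22.4% of all measured genes. Among the 7, KIF1C and KIF5A each had a step whose interval included no change. These were 1.03-fold up for KIF1C in shPRAME over shEmpty (0.983 to 1.08) and 1.10-fold down for KIF5A in shBAP1 (0.577 to 2.14).

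Among the other kinesins KIF21B stood out in size. KIF21B (chromosome 1) regulates microtubule growth and transport in neurons and lymphocytes. It had 3806 counts in shPRAME, 273 in shBAP1 and 130 in shEmpty, which is 208, 18.4 and 6.94 CPM. It was 30.0-fold higher in shPRAME than in shEmpty (25.2 to 36.0), 2.65-fold higher in shBAP1 (2.14 to 3.29) and 11.3-fold higher in shPRAME than in shBAP1 (10.0 to 12.8). Its paralog KIF21A (chromosome 12), which restrains microtubule growth at the cell cortex, had 22.6 CPM in shPRAME, 17.2 CPM in shBAP1 and 34.4 CPM in shEmpty. KIF21A was called lower in shBAP1 at 2.001-fold (1.73 to 2.32), and this call ended under total-count and upper-quartile scaling (log2 ratios of -0.88 and -0.93) and with a pseudocount of 1 CPM (-0.96).

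Cilium and centriole kinesins did not move together. KIF7 (chromosome 15), a regulator of Hedgehog signalling at the tip of the primary cilium, had 32.2 CPM in shPRAME, 5.19 CPM in shBAP1 and 11.95 CPM in shEmpty. It was called on opposite sides, 2.69-fold higher in shPRAME (2.31 to 3.16) and 2.30-fold lower in shBAP1 (1.77 to 3.03). KIF24 (chromosome 9), a centriolar depolymerase that restrains cilium formation, had 4.16 CPM in shPRAME, 7.01 CPM in shBAP1 and 11.3 CPM in shEmpty. It was 2.71-fold lower in shPRAME (2.07 to 3.57) and shared the order of libraries seen in the mitotic motors. KIF9 (chromosome 3), a motor of motile cilia and sperm tails, was at 4.76 CPM in shPRAME, 6.60 CPM in shBAP1 and 5.34 CPM in shEmpty, and neither ratio to shEmpty left out no change. Of its annotated exon bases 16.4% lie opposite other genes, with the limit given for KIFC2.

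The depolymerase KIF2A (chromosome 5), which acts at spindle poles and in neurons, had 58.8 CPM in shPRAME, 108 CPM in shBAP1 and 100.5 CPM in shEmpty. Its ratio of 1.71-fold down in shPRAME (1.58 to 1.84) was smaller than that of its mitotic paralog KIF2C, and in shBAP1 it had 1.08-fold up (1.01 to 1.15). KIF26B (chromosome 1), an atypical kinesin linked to Wnt5a signalling, had 4.65 CPM in shPRAME, 2.36 CPM in shBAP1 and 7.20 CPM in shEmpty, and was 3.06-fold lower in shBAP1 (2.09 to 4.57). Below the count minimum, KIF6 had 37 counts in shPRAME, 58 in shBAP1 and 17 in shEmpty, and KIF27 had 55, 22 and 43. KIF12 had 25 counts in shPRAME, 1 in shBAP1 and 2 in shEmpty, a ratio of 12.8-fold over shEmpty with a counting interval of 3.19 to 112. KIF1A had 25 counts in shPRAME, 13 in shBAP1 and 20 in shEmpty, and KIF17 had 16, 5 and 3. KIF19, KIF26A and KIF4B had at most 3 counts in any library.

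Partners of the mitotic motors and other mitotic genes were mostly called lower in shPRAME too. Of 25 measured spindle, cytokinesis and proliferation genes 23 were called lower in shPRAME than in shEmpty and 2 neither, against 9.08% of all measured genes lower, with a median log2 ratio of -1.44. The 25 include CENPE and the more general proliferation genes MKI67, TOP2A and CCNB1. In shBAP1 4 were lower (16.0%, against 8.56% of all measured genes) and 21 neither, with a median of -0.67. RACGAP1, which forms centralspindlin with KIF23, was 3.28-fold lower in shPRAME (3.08 to 3.50), and PRC1, which binds KIF4A, 2.84-fold (2.68 to 3.005). SKA1, which helps kinetochores hold microtubules, had the lowest ratio of the list, 6.59-fold down in shPRAME and 2.49-fold in shBAP1. RACGAP1, PRC1, MKI67 and KIFAP3 were picked after their values were seen. CENPE, a kinesin of the kinetochore whose symbol lies outside the KIF names, was 2.30-fold lower in shPRAME (2.14 to 2.48) and had a ratio of 1.43-fold down in shBAP1 (1.34 to 1.53). The proliferation marker MKI67, already counted among the 25, had 242 CPM in shPRAME, 405 CPM in shBAP1 and 787 CPM in shEmpty. This is the order seen in every measured mitotic kinesin. Of 18 cell cycle transcription regulators 8 were lower in shPRAME, none higher and 10 neither (44.4% lower, against 9.08% of all measured genes), with a median of -0.75. In shBAP1 3 were lower and 1 higher (16.7% and 5.56%, against 8.56% and 5.53% of all measured genes), with a median of -0.19. The 3 lower in shBAP1 were MYBL2 (2.12-fold), E2F1 (2.09-fold) and E2F2 (2.08-fold), and the 1 higher was E2F4 (2.03-fold). Ratios of 2 of the 18 lay above no change in shPRAME. E2F7 had the lowest ratio of these regulators in shPRAME, 5.28-fold down, and E2F2 and E2F8 were 4.16-fold and 4.04-fold lower. FOXM1, an activator of mitotic genes, was 4.50-fold lower in shPRAME and MYBL2, of the same program, 4.98-fold. Fewer dividing cells and less of these transcripts per dividing cell cannot be told apart in bulk RNA.

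Of 19 measured genes on a list of adaptors and light chains of the transport motors 1 was higher and 2 lower in shPRAME and 16 neither, with a median of 0.36. These shares of 5.26% higher and 10.5% lower compare with 10.2% and 9.08% of all measured genes. In shBAP1 3 were lower (15.8%, against 8.56%) and 16 neither, and the median was -0.16. KLC4, a light chain of conventional kinesin, was 3.44-fold higher in shPRAME (2.82 to 4.23). FEZ1, an adaptor for KIF5 cargo in neurons, was 6.09-fold lower in shPRAME (3.82 to 10.2). It had 21 counts in shPRAME, 46 in shBAP1 and 131 in shEmpty. MAPK8IP2, with 48, 27 and 208 counts in the same order, was the other gene called lower in shPRAME. Both were also called lower in shBAP1, and both reached the count minimum only through shEmpty. KIAA1279, the older symbol of the kinesin-binding protein KIF1BP, was 2.78-fold lower in shBAP1 (2.45 to 3.16). KIAA1279 and MLPH were counted in the list although they are not adaptors or light chains of kinesins.

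**Figure D5:**
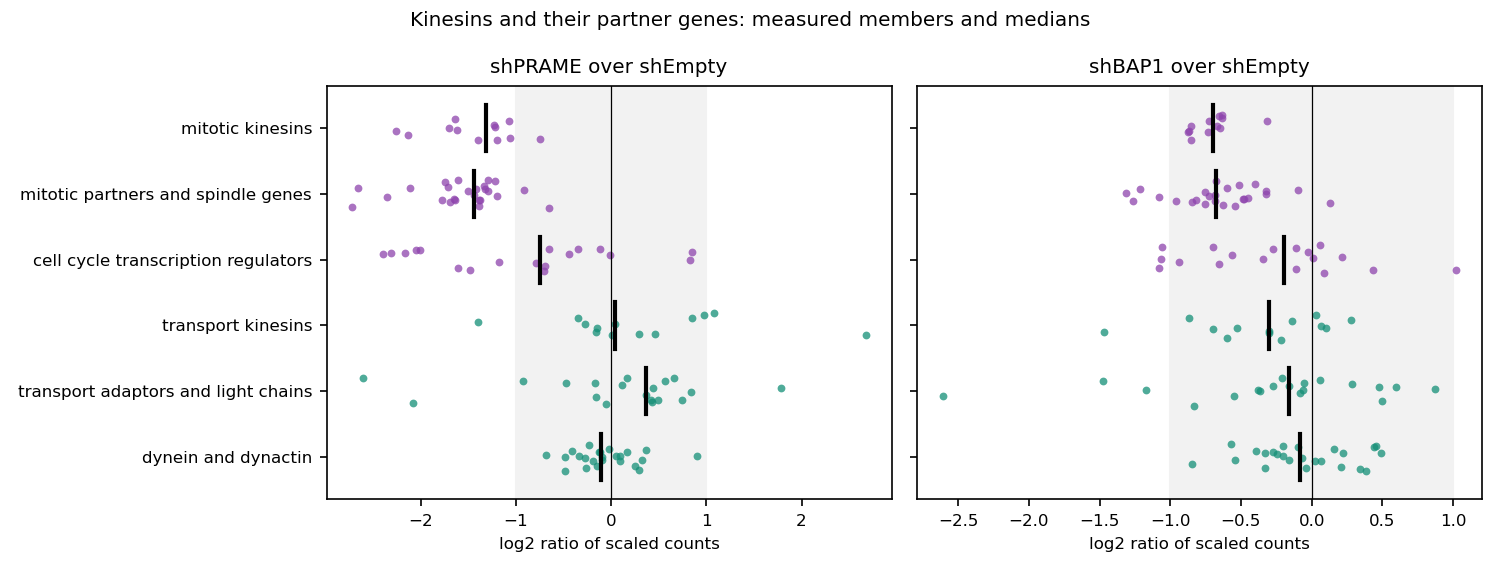
Log2 ratios of scaled counts for measured members of 6 gene lists in shPRAME over shEmpty (left) and shBAP1 over shEmpty (right), with 1 point per gene, black bars at the medians and grey shading inside the 2-fold limit. Mitotic kinesins and the list of their partners and spindle genes have medians of -1.31 and -1.44 in shPRAME and -0.70 and -0.67 in shBAP1. Transport kinesins, the adaptor list and the dynein and dynactin list have medians of 0.04, 0.36 and -0.11 in shPRAME.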

How the data were processed

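Directional RNA libraries of 3 melanoma cell populations were sequenced, per the labels' protocols, with 1 library per group. The authors deposited 1 table of raw counts per gene, with 3 library columns, all used. The submitters' processing notes name FastQC, TopHat, Cufflinks and edgeR and the assembly hg19 (GRCh37). How reads were counted, with which annotation and strand setting, is not stated by the sources. The members and lists were chosen with earlier results of these data known.

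Counts were scaled by TMM factors over the 3 libraries (edgeR 4.0.16, R 4.3.3). A gene was measured where its mean over the libraries reached 50 counts (11956 of 24424). Ratios have exact conditional binomial 95% intervals (scipy 1.17.1), and calls need a 2-fold difference and an interval that leaves out no change. Levels per kb use the longest protein-coding transcript of each symbol in GENCODE v29. All members with at least 10 counts in a library are described, and other genes come from lists of partners, regulators and markers, by size of ratio or as known partners of a member. The calls and their intervals were tested on simulated counts with counting error only and fixed scaling. Variation between populations was not simulated. Alternatives were other scalings (total count, upper quartile, DESeq2 1.42.0), count minimums, fold limits, a pseudocount, means, other role assignments and other denominators of the shares. A correction for transcript length was chosen after seeing the data.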

Additional observations from a re-analysis of the deposited data

How the results depend on the processing

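No paired analysis was possible because each group was 1 library. No replicate could be left out for the same reason. Of the values for counts over all kinesins, medians, differences and mitotic shares, 133 stayed within their limits under an alternative and 32 moved. Of the values for each role, 127 stayed and 17 moved, among them mitotic kinesins lower at 1.5-fold (11 in shBAP1 over shEmpty, 6 in shPRAME over shBAP1). No called gene changed sign, and KIF1B, not called, went to -0.02 in shPRAME over shBAP1 with total-count scaling, against 0.06 as reported. Among single genes 373 values kept their call, 6 gained one and 5 lost one. The causes were not tested. For shPRAME over shEmpty, the transport median was 0.16 with a minimum of 10 counts, 0.29 with no minimum and 0.31 as a mean. The difference between mitotic and transport motors was -1.60 with no minimum and -1.75 as means, and the mitotic mean was -1.44. Kinesins called higher numbered 7 with no minimum and 2 at 3-fold, where 5 were lower. For shBAP1 over shEmpty, total-count scaling gave medians of -0.58 (mitotic) and -0.18 (transport). Kinesins called higher numbered 2 with a minimum of 10 or none, and 0 at 3-fold. Those lower numbered 2 with a minimum of 200, 19 at 1.5-fold, 1 at 3-fold and 1 with the whole interval beyond 2-fold. For shPRAME over shBAP1, a minimum of 200 counts gave a transport median of 0.18 and a difference of -0.85. The 1.5-fold limit gave 10 higher and 9 lower, and the 3-fold limit 1 lower. The mitotic share in shPRAME was 24.6% with KIF2A, KIF21A and KIF21B assigned to roles, 25.8% of mitotic plus transport counts and 31.6% per kb. In shBAP1 these were 42.0%, 40.4% and 47.0%, and in shEmpty 47.9%, 47.4% and 54.8%. Directly compared, KIF18A passed the limit under total-count scaling (-1.04), KIF16B under upper-quartile and DESeq2 scaling (both 1.01) and KIF26B under DESeq2 scaling (1.00). Few counts limit KIF5A, KIF5C, KIF9, KIF24 and KIF26B, and the lack of replicates limits every comparison.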

Other observations

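Dynein, the main minus-end motor of microtubules, and its activator dynactin were set beside the kinesins. The list also held PAFAH1B1, NDE1, NDEL1, BICD1 and BICD2, which are regulators or adaptors and not subunits. Of 24 measured genes none was called higher or lower in shPRAME over shEmpty or in shBAP1 over shEmpty, with median log2 ratios of -0.11 and -0.08. Over all measured genes 10.2% were higher and 9.08% lower in shPRAME, and 5.53% and 8.56% in shBAP1. DYNLT3, a light chain of dynein, had 313 CPM in shPRAME, 115 CPM in shBAP1 and 168 CPM in shEmpty, and was 1 of 2 genes of the list called higher in shPRAME than in shBAP1 (8.33%, against 14.2% of all measured genes). The other was the regulator NDE1 (2.31-fold).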
